A study of Mus musculus with 3 samples.

Results

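A set of 10 genes of epithelial retention and tissue egress was followed in 3 sorted leukocyte populations of the mouse gut epithelium: Itgae, Itgb7, Cdh1, Epcam, Jaml, Cxadr, Cd69, S1pr1, S1pr5 and Klf2. They were taken by symbol, and all were found among 37224 Ensembl gene IDs. Each population had 1 RNA-seq library, and all 3 carried the genotype RAG-2 null, so every group lacked the recombinase that T and B cells need to assemble their antigen receptors. The iCD8a library came from cells sorted for the leukocyte antigen CD45 and for CD8alpha. The ILC1 library came from group 1 innate lymphoid cells sorted for NKp46 and NK1.1, and the CD11b+ library from myeloid cells that carried CD45 and CD11b and lacked CD8alpha. The sources used here do not state the age of the mice or how many mice went into a library. Because each group is 1 library, differences could be neither tested nor checked between replicates, and every interval covers counting error only.

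Leukocytes that live between epithelial cells are held there by adhesion. The integrin αEβ7, made of the Itgae and Itgb7 products, binds E-cadherin, the Cdh1 product, and the receptor JAML binds CAR, the Cxadr product, on epithelial cells. Leaving a tissue depends on sphingosine 1-phosphate (S1P), a lipid that is abundant in blood and lymph and is sensed by receptors such as S1PR1 and S1PR5. The transcription factor KLF2 activates S1pr1, and the CD69 protein binds S1PR1 and removes it from the cell surface, so that tissue-resident lymphocytes typically carry αE and CD69 and little Klf2 or S1pr1.

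Expression is given as CPM, the share of a library's gene counts that fell on a gene, scaled between libraries by TMM factors, which centre the bulk of genes. Triplets of values below are in the order iCD8a, ILC1, CD11b+. Reads on genes numbered 21678113, 22181660 and 30511296, of which mitochondrially encoded genes took 1.60%, 2.09% and 9.53%. The sort markers followed the gates, with Cd8a at 2636, 4.41 and 28.3 CPM and Ncr1, which encodes NKp46, at 1.44, 396 and 2.23 CPM. Itgam, which encodes CD11b, was highest in CD11b+ at 845 CPM and was also present at 362 in iCD8a and 187 in ILC1. Transcripts of other cell types were present as well. The summed level of 34 intestinal epithelial markers was 274, 269.8 and 2652 CPM, that of 8 macrophage markers was 28.9, 310.2 and 6664, and that of 6 plasmacytoid dendritic cell markers was 851, 168 and 181. For 9 dendritic cell markers it was 807, 1056 and 2314 CPM, of which Itgax made up 722, 957 and 1591. Flt3, Clec9a, Clec10a and Cd209a were lowest in ILC1, at 0.682, 0.182, 0.273 and 0.682 CPM against 35.1, 21.9, 12.2 and 9.39 in iCD8a. Zbtb46 and Xcr1, like Itgax, were higher in ILC1, at 92.2 and 4.27 CPM against 3.05 and 2.33 in iCD8a. The 7 natural killer and ILC1 markers, which include Ncr1, were summed at 326, 3161 and 81.4 CPM, with Eomes at 448 and Klrk1 at 895 in ILC1. This list does not separate natural killer cells from ILC1, and the share of each in the ILC1 library was not tested. In bulk libraries of this kind, fewer cells of a type and less RNA per cell cannot be told apart.

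Adhesion and egress genes were distributed differently over the populations. Itgae was highest in iCD8a, Epcam was low in ILC1, Cd69 was highest in ILC1, and the egress genes S1pr1, S1pr5 and Klf2 were lowest in iCD8a. Genes counted as apart in a pair of libraries met 3 conditions: a fold of 4 or more, a near bound of 2 or more on the 95% interval, and 5 CPM or more in the higher library. Between iCD8a and ILC1, 2 of the 10 genes were apart upward in iCD8a, Itgae and Epcam, where 3.52% of all genes with at least 5 CPM in either library passed, and 2 were apart upward in ILC1, S1pr1 and Klf2, where 4.89% of all genes passed. Between iCD8a and CD11b+, none of the 10 was apart upward in iCD8a (6.13% of all genes) and 2 were apart upward in CD11b+, S1pr5 and Klf2 (13.4% of all genes). Between ILC1 and CD11b+, 2 were apart upward in ILC1, Cd69 and S1pr1 (6.01% of all genes), and 1 in CD11b+, Epcam (13% of all genes). The 5 CPM minimum was reached by 9, 9 and 10 of the 10 genes in these pairs. Counts over so few genes are descriptions, and the 3 comparisons share libraries. The median log2 ratio of the set was −0.04 in the first pair (iCD8a over ILC1), 0.79 in the second (iCD8a over CD11b+) and 0.13 in the last (ILC1 over CD11b+), beside 0.06, 0.05 and 0.00 over all genes.

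**Figure D1:**
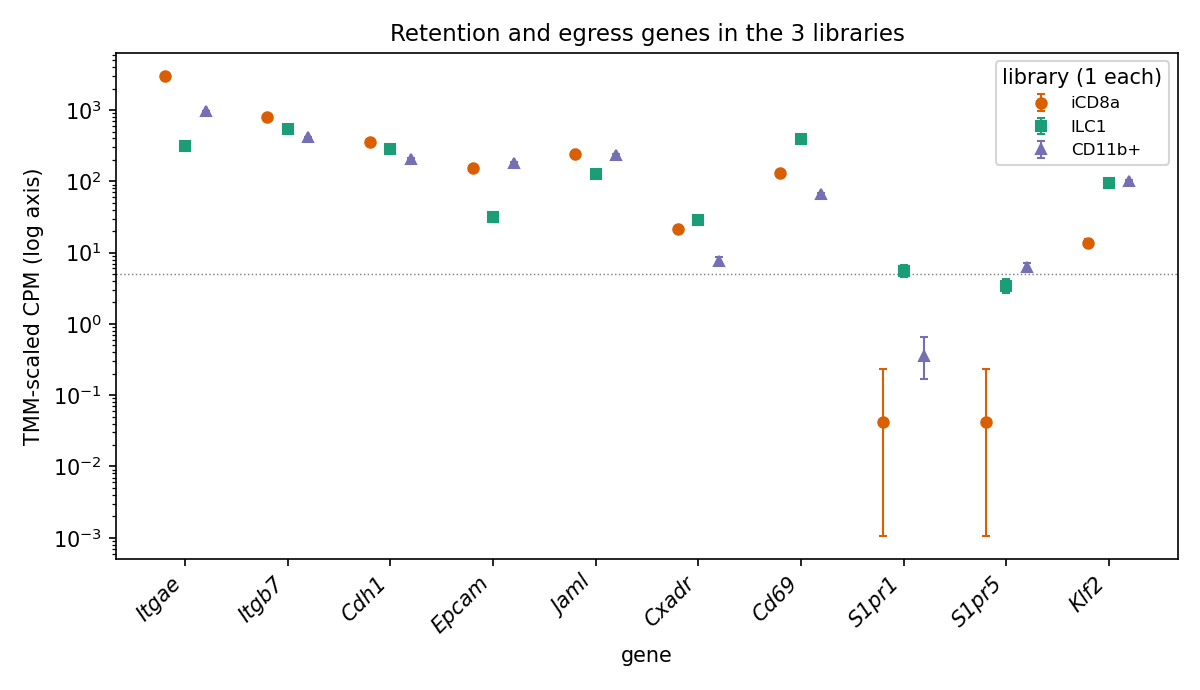
Level of each of the 10 genes in the 3 libraries, as TMM-scaled CPM on a log axis, with 1 point per library, 95% exact Poisson intervals as bars and a dotted line at 5 CPM. Itgae in iCD8a is the highest point at 2989.7 CPM, and S1pr1 and S1pr5 in iCD8a are the lowest at 0.0423 CPM each.

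Itgae, the αE chain, was the most unequal of the 6 adhesion genes. It had 70651 counts in iCD8a, 6927 in ILC1 and 27080 in CD11b+, or 2989.7, 315 and 959.9 CPM. No library was low in absolute terms, and the order was iCD8a, then CD11b+, then ILC1. The level in iCD8a was 9.50-fold that in ILC1 (95% interval 9.27 to 9.74), which passed the rule, and 3.11-fold that in CD11b+ (3.07 to 3.16), which did not. CD11b+ stood 3.05-fold above ILC1 (2.97 to 3.13). Per kilobase of exon, which allows genes to be compared, Itgae ranked 32nd of 21131 protein-coding genes in iCD8a, 186th in CD11b+ and 621st in ILC1. The 7 genes of a T cell marker list were summed at 5523, 167 and 273 CPM. Cd3g, at 2749 CPM, and the sort gene Cd8a, at 2636 CPM, were the main parts in iCD8a. Against ILC1, 5 of the 7 were apart upward in iCD8a (3.52% of all genes) and 1 downward (4.89%). The downward gene was Cd2, at 0.677, 95.6 and 1.88 CPM. Cd4 was highest in CD11b+, at 24.0, 6.91 and 33.6 CPM. These genes are listed as transcripts only, since RAG-2 null mice lack the recombinase that T cells need to assemble their antigen receptors. Their relation to the Itgae level was not tested.

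An unrelated gene lies inside Itgae. Haspin, which encodes a mitotic histone kinase, sits in an Itgae intron on the opposite strand and shares no exon base with it. It had 4817, 813 and 2003 counts, and its level was 5.52-fold higher in iCD8a than in ILC1 (5.12 to 5.95) and 2.87-fold higher than in CD11b+ (2.72 to 3.03). Both genes thus had the same order of libraries. The Haspin count came to 6.82% of the Itgae count in iCD8a, 11.7% in ILC1 and 7.40% in CD11b+. The sources used here do not give the strand setting of the counting, and whether Itgae intron reads entered the Haspin count was not tested.

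Itgb7, the β7 chain, differed much less than its partner. It had 19026, 11844 and 11653 counts in iCD8a, ILC1 and CD11b+, or 805, 538 and 413 CPM. The 3 levels were within a factor of 1.95 (1.9 to 1.99) of each other, and no pair was apart. Per kilobase, Itgae stood above Itgb7 in iCD8a, at 653 against 291 CPM per kilobase, below it in ILC1, at 68.7 against 194, and above it in CD11b+, at 209.5 against 149.

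The β7 chain can also pair with α4, the Itga4 product, to form α4β7, the receptor for the gut addressin MAdCAM-1 that brings leukocytes from blood to the gut. Itga4 ran against Itgae in iCD8a. It stood at 60.6, 473 and 615 CPM, which was 7.80-fold lower in iCD8a than in ILC1 (7.38 to 8.25) and 10.1-fold lower than in CD11b+ (9.61 to 10.7). The ratio of Itgae to Itga4 per kilobase was 150.4 in iCD8a, 2.03 in ILC1 and 4.76 in CD11b+. With the longest transcript as the gene length, the ratios were 125, 1.69 and 3.96. The iCD8a library therefore held mostly the αE transcript of the 2 α chains that pair with β7, while ILC1 and CD11b+ held both at levels within a factor of 5.

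Other integrin chains did not follow Itgae. Itgb1, the β1 chain that also pairs with α4 and with α1, was at 114, 475 and 328 CPM and was apart between ILC1 and iCD8a at 4.16-fold (3.99 to 4.34). Itgal, the αL chain of LFA-1, was at 55.6, 709.6 and 395 CPM, 12.8-fold lower in iCD8a than in ILC1 (12.1 to 13.5) and 7.09-fold lower than in CD11b+ (6.70 to 7.51). Itga1, the collagen-binding α1 chain found on many tissue-resident lymphocytes, was instead highest in iCD8a, at 525, 303 and 52.7 CPM, 9.96-fold higher in iCD8a than in CD11b+ (9.43 to 10.5). Itgb2, the partner of αL and of CD11b, was at 389, 265 and 791 CPM. In the list of 8 integrin partners and ligands, 4 were apart downward in iCD8a against ILC1 (Itga4, Itgb1, Itgal and the ligand gene Icam1; 4.89% of all genes) and none upward (3.52%), and the list's median log2 ratio was −2.51 against 0.06 over all genes. Of the ligand genes of α4 integrins, Madcam1 had 0 counts in each library, under a floor of 3 counts, or 0.127, 0.136 and 0.106 CPM, and Vcam1 had 0, 3 and 56 counts.

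**Figure D2:**
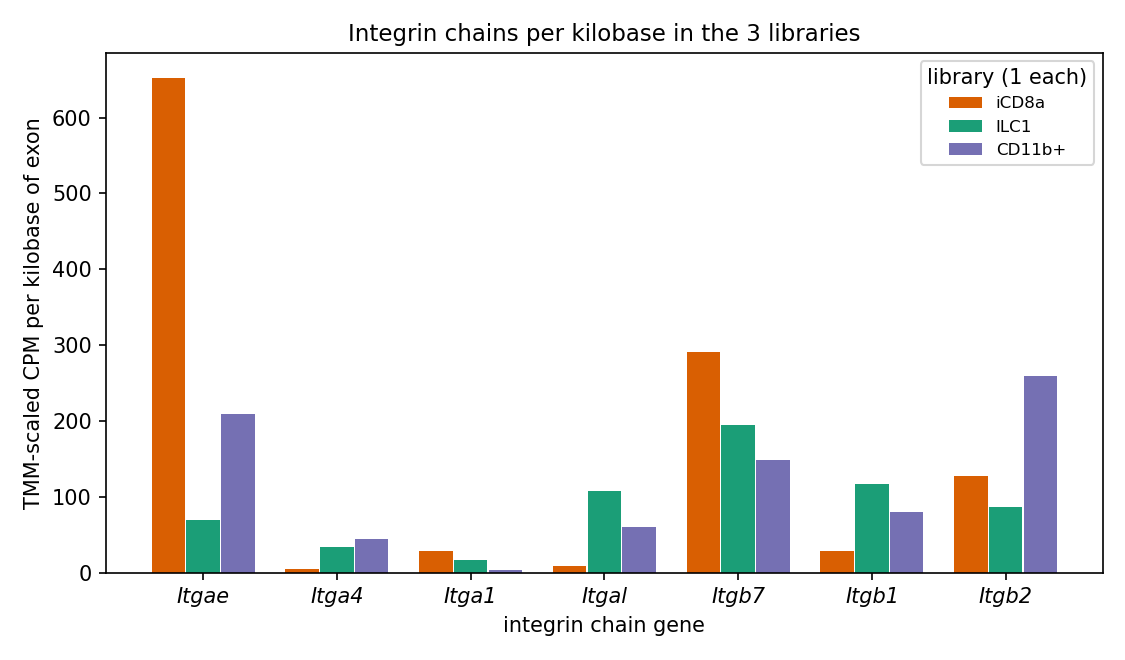
TMM-scaled CPM per kilobase of exon for 4 α chains and 3 β chains of integrins, with 1 bar per library and no error bars, on an axis that starts at 0. The Itgae bar of iCD8a reaches 653, while the Itga4 and Itgal bars of iCD8a, at 4.34 and 8.47, are the shortest of their groups.

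Cdh1 encodes E-cadherin, the ligand of αEβ7 on epithelial cells, which is also made by some leukocytes. All 3 sorted leukocyte libraries held it at similar levels, with 8487, 6361 and 5872 counts, or 359, 289 and 208 CPM. The level in iCD8a was 1.24-fold that in ILC1 (1.20 to 1.28) and 1.73-fold that in CD11b+ (1.67 to 1.78), so the library with the most epithelial marker transcripts had the least Cdh1. Per kilobase, Cdh1 ranked 475th, 693rd and 1109th of 21131 protein-coding genes.

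The contrast with epithelial transcripts was plain across the whole marker list. Of the 34 epithelial markers, 32 were apart upward in CD11b+ against iCD8a (13.4% of all genes) and 32 against ILC1 (13%). Their ratio of iCD8a over CD11b+ ranged from 0.0299 to 0.25 with a median of 0.114. The Cdh1 ratio of 1.73 was above all 34. Between ILC1 and CD11b+ the 34 ratios ranged from 0.0284 to 0.294, and the Cdh1 ratio of 1.39 was again above all 34. Between iCD8a and ILC1, where the marker ratios ranged from 0.391 to 1.5 with a median of 0.967, the Cdh1 ratio of 1.24 lay inside their range. None of the 34 markers was at 0 counts in any library.

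Epcam encodes a homophilic adhesion molecule of intestinal epithelial cells that some dendritic cells also make. It had 3649 counts in iCD8a, 688 in ILC1 and 5087 in CD11b+, or 154, 31.3 and 180.3 CPM. ILC1 was low and the other two were close. Epcam was 4.94-fold higher in iCD8a than in ILC1 (4.55 to 5.37) and 5.77-fold higher in CD11b+ than in ILC1 (5.33 to 6.25), and both differences passed the rule. Between CD11b+ and iCD8a the fold was 1.17 (1.12 to 1.22), and with plain CPM in place of TMM scaling the ratio of iCD8a over CD11b+ became 1.01, on the other side of 1. Beside the epithelial markers, the Epcam ratio of iCD8a over ILC1 was above all 34, as was its ratio of iCD8a over CD11b+, 0.856. Its ratio of ILC1 over CD11b+, 0.173, was inside the marker range, above 32 markers and below 2. The part of epithelial RNA in the Epcam level of ILC1 and CD11b+ was not tested, nor was that of dendritic cells in any library.

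Among other genes of cell junctions, most followed the epithelial markers and a few did not. In a list of 31 junction genes that includes Cdh1, Epcam and Cxadr, 11 were apart upward in CD11b+ against iCD8a (13.4% of all genes) and none upward in iCD8a (6.13%), and the median log2 ratio for this pair was −2.31 against 0.05 over all genes and −3.12 over the epithelial markers. Examples were Jup (plakoglobin), 13.8-fold higher in CD11b+ (12.3 to 15.5), and F11r, which encodes the adhesion molecule JAM-A, 96.5-fold higher (63.6 to 154). Cdh17, the liver-intestine cadherin, had a pattern near that of Itgae. It stood at 193, 19.1 and 72.3 CPM, 10.1-fold higher in iCD8a than in ILC1 (9.12 to 11.2) and 2.67-fold higher than in CD11b+ (2.53 to 2.81). Against ILC1, the 3 junction genes apart upward in iCD8a (3.52% of all genes) were Epcam, Cdh17 and the claudin gene Cldn23. The list's median log2 ratio for this pair was 0.12. The catenin genes Ctnnb1 and Ctnna1, whose products tie E-cadherin to actin, were at 261, 361 and 239 CPM and at 117, 119 and 153 CPM, while Ctnnd1, which encodes the p120 catenin that stabilises cadherins at the membrane, was at 7.49, 3.45 and 57.8 CPM.

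**Figure D3:**
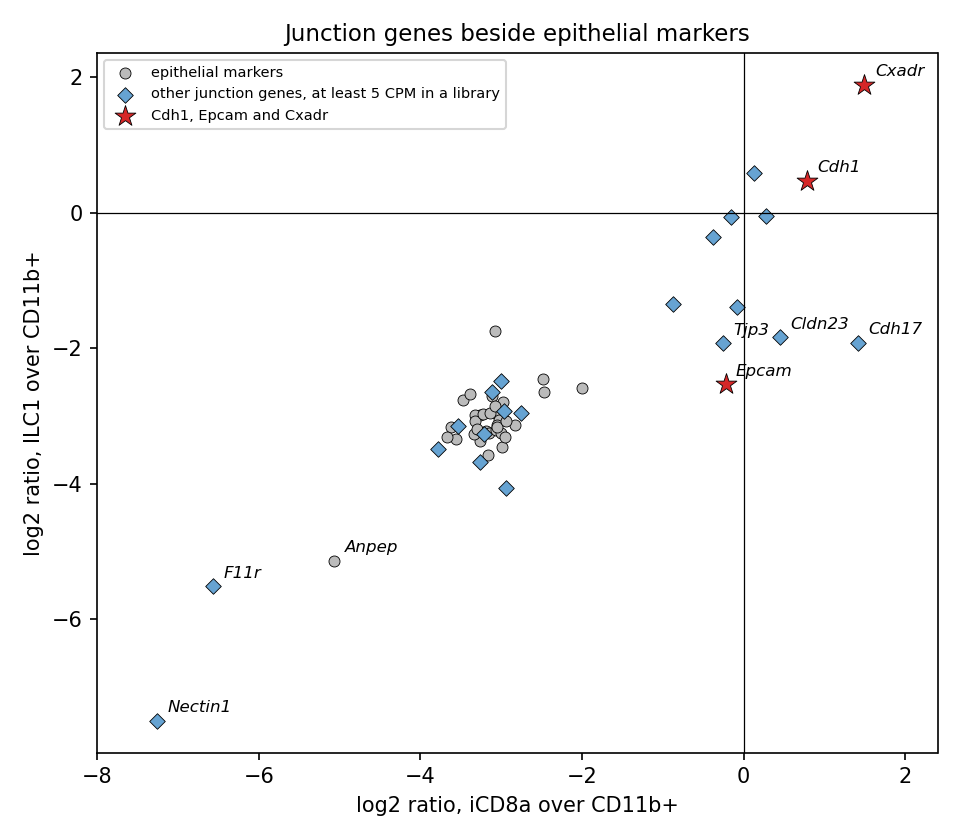
Log2 ratio of iCD8a over CD11b+ (horizontal) and of ILC1 over CD11b+ (vertical) for 34 epithelial markers (grey circles), junction genes with at least 5 CPM in a library (blue diamonds) and Cdh1, Epcam and Cxadr (red stars), 1 point per gene. The grey circles lie at the lower left, between ratios of 0.0299 and 0.25 on the horizontal axis, and the 3 stars lie to the right of all of them.

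JAML is an adhesion receptor of leukocytes, and CAR is its ligand on epithelial cells. Jaml had 5731 counts in iCD8a, 2794 in ILC1 and 6675 in CD11b+, or 243, 127 and 237 CPM. The receptor gene was expressed in all 3 populations and lowest in ILC1. The level in iCD8a was 1.91-fold that in ILC1 (1.83 to 2), and 1.02-fold that in CD11b+ with an interval, 0.989 to 1.06, that includes 1. No pair was apart.

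Cxadr was low in all 3 libraries, at 511, 626 and 216 counts, or 21.6, 28.4 and 7.66 CPM. It was 3.72-fold higher in ILC1 than in CD11b+ (3.18 to 4.36) and 2.82-fold higher in iCD8a than in CD11b+ (2.4 to 3.33), so CD11b+, the library highest in the epithelial markers, was the lowest in Cxadr, and no pair was apart. Another gene bears on this reading. Btg3, which encodes an antiproliferative protein, overlaps Cxadr on the opposite strand and shares 695 exon bases with it. It had 722, 698 and 230 counts, 1.04-fold higher in ILC1 than in iCD8a (0.934 to 1.15) and 3.89-fold higher in ILC1 than in CD11b+ (3.35 to 4.54). Its fold between ILC1 and CD11b+ was thus close to that of Cxadr. Without a known strand setting, reads on those shared bases, which are 695 of the 7400 exon bases of Cxadr, cannot be assigned to either gene, and their part in the Cxadr count was not tested. Per kilobase, Cxadr was at 2.92, 3.84 and 1.03 CPM against 78.0, 40.8 and 76.1 for Jaml.

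**Figure D4:**
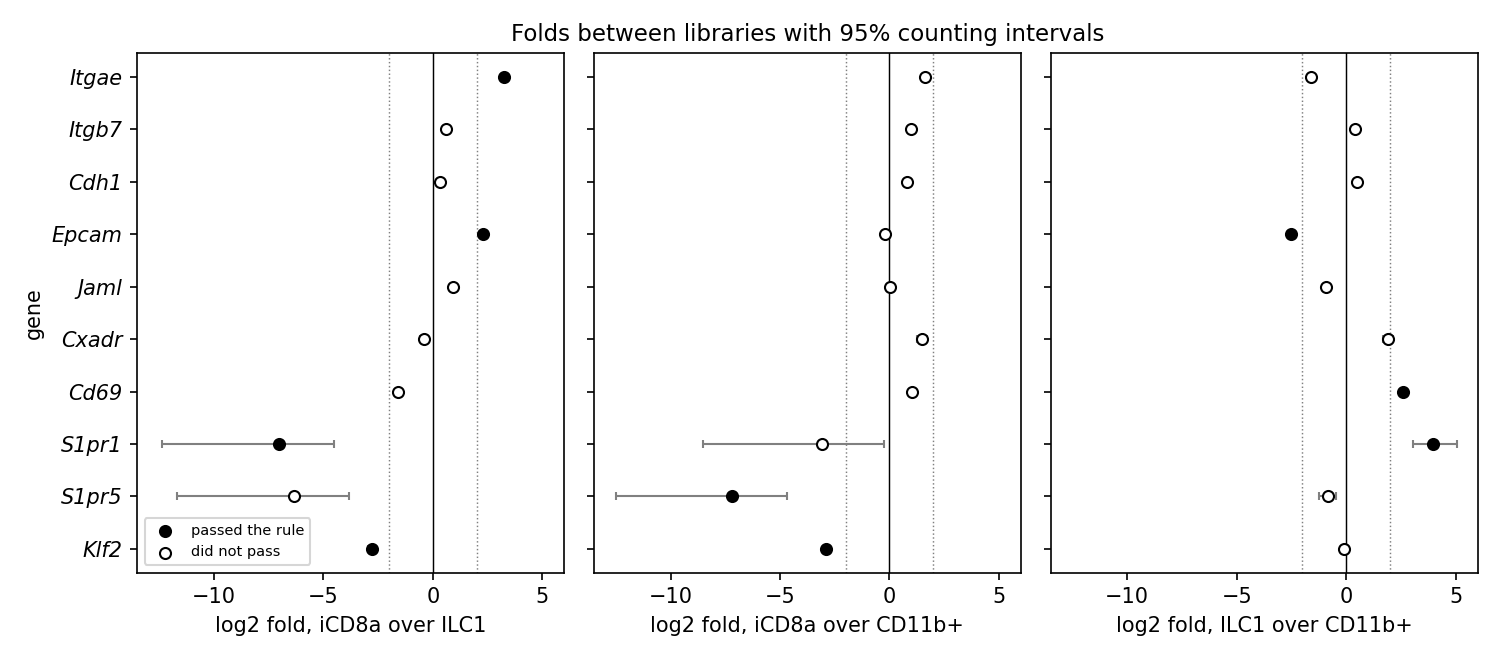
Log2 folds of the 10 genes between each pair of libraries, with 95% exact counting intervals as horizontal bars, filled points for genes that passed the rule and dotted lines at a fold of 4. The widest intervals are those of S1pr1 and S1pr5, which had 1 count each in iCD8a, and the folds of Itgb7, Cdh1 and Jaml lie within 1.95 of equality in all 3 panels.

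Cd69 encodes an early activation antigen that is kept on tissue-resident lymphocytes. It had 3124 counts in iCD8a, 8752 in ILC1 and 1853 in CD11b+, or 132, 398 and 65.7 CPM. ILC1 was highest and CD11b+ lowest. The level in ILC1 was 6.05-fold that in CD11b+ (5.76 to 6.37), which passed the rule, and 3.01-fold that in iCD8a (2.89 to 3.13), which did not. Between iCD8a and CD11b+ the fold was 2.01 (1.9 to 2.13). Cd69 and Itgae, which mark resident cells together, thus had different orders: iCD8a led in Itgae and ILC1 in Cd69.

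S1pr1, the receptor that leads lymphocytes out of tissues into lymph, was close to the detection limit outside ILC1. It had 1 count in iCD8a, 122 in ILC1 and 10 in CD11b+, or 0.0423, 5.54 and 0.354 CPM. The ratio of ILC1 over iCD8a was 131, with a counting interval of 23.1 to 5216 since it rests on 1 count, and that of ILC1 over CD11b+ was 15.6 (8.22 to 33.4). Both passed the rule, although the ILC1 level lies just above its minimum of 5 CPM. Even in ILC1 it was a low transcript, ranked 8577th per kilobase of 21131 protein-coding genes. Endothelial cells carry much S1pr1. The 11 endothelial markers were summed at 588, 335 and 222 CPM, of which Pecam1, also a leukocyte gene, made up 568, 329 and 196. In ILC1, 8 of the 11 were under 1 CPM, among them Cdh5 and Kdr at 0.0909 CPM each, and 2 of them, Tek and Esam, had 0 counts. Besides Pecam1, Vwf was at 3.91 and Eng at 1.54 CPM there, and the part of endothelial RNA in the S1pr1 level was not tested.

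S1pr5, the receptor that natural killer cells use to leave bone marrow and lymph nodes, was likewise at 1 count in iCD8a, with 76 in ILC1 and 175 in CD11b+, or 0.0423, 3.45 and 6.20 CPM. It passed the rule between CD11b+ and iCD8a, at a ratio of 147 with a counting interval of 26.0 to 5823. Between ILC1 and iCD8a the ratio was 81.6 (14.2 to 3265), below the CPM minimum of the rule. CD11b+ was 1.80-fold above ILC1 (1.36 to 2.38). The iCD8a library was therefore the one in which both S1pr1 and S1pr5 were at a single read.

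The other S1P receptor genes were present in iCD8a. S1pr3 stood at 42.3, 19.8 and 5.25 CPM, 8.06-fold higher in iCD8a than in CD11b+ (6.77 to 9.64), and S1pr4, a receptor found mainly on leukocytes, at 18.4, 28.3 and 2.69 CPM, 6.82-fold higher in iCD8a (5.33 to 8.82) and 10.5-fold higher in ILC1 (8.27 to 13.5) than in CD11b+. S1pr2, a receptor that restrains migration, differed less, at 8.72, 16.8 and 11.8 CPM. Compared per kilobase within a library, the order in iCD8a was S1pr3 at 9.47, S1pr4 at 7.70 and S1pr2 at 1.09 CPM, with S1pr5 and S1pr1 at 0.0169 and 0.0139. In ILC1 it was S1pr4 at 11.9, S1pr3 at 4.43, S1pr2 at 2.11, S1pr1 at 1.82 and S1pr5 at 1.38. In CD11b+ S1pr5 led at 2.48, followed by S1pr2 at 1.48, S1pr3 at 1.18, S1pr4 at 1.13 and S1pr1 at 0.116. Each population thus had a different leading receptor gene.

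Most enzymes and carriers of S1P differed by less than the fold of 4. Of the 18 genes of the S1P system, which include S1pr1 and S1pr5, 1 was apart downward in iCD8a against ILC1 (4.89% of all genes) and none upward (3.52%). Between iCD8a and CD11b+, 2 were apart upward (6.13% of all genes) and 2 downward (13.4%), and between ILC1 and CD11b+, 2 upward (6.01%) and 1 downward (13%). With 18 genes, counts of 1 or 2 are near these shares. The kinase gene Sphk2 was at 97.6, 54.8 and 86.1 CPM, the lyase gene Sgpl1 at 51.8, 79.2 and 163 CPM, and the phosphatase gene Sgpp1 at 80.1, 50.0 and 58.9 CPM. The other phosphatase gene, Sgpp2, was 7.05-fold higher in CD11b+ than in iCD8a (4.25 to 12.4). Gnai2, the G protein subunit through which S1PR1 signals, and Grk2, the kinase that desensitises it, were at 704, 617 and 1238 CPM and at 372, 501 and 589 CPM.

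Klf2 encodes the zinc-finger factor that activates S1pr1 and other genes of circulating lymphocytes. It had 328 counts in iCD8a, 2083 in ILC1 and 2886 in CD11b+, or 13.9, 94.7 and 102 CPM. Only the iCD8a library was low. The level there was 6.82-fold below ILC1 (6.07 to 7.68) and 7.37-fold below CD11b+ (6.57 to 8.29), and both differences passed the rule, while CD11b+ and ILC1 differed by 1.08-fold (1.02 to 1.14). CD11b+ had as much Klf2 as ILC1 and 15.6-fold less S1pr1, so the order of Klf2 over the 3 libraries was not that of S1pr1. Klf3, a related factor, was lower still in iCD8a, at 2.54 CPM against 46.2 in ILC1 and 83.9 in CD11b+, 18.2-fold (14.0 to 24.0) and 33.0-fold (25.6 to 43.4) below them. Foxo1, which encodes an activator of Klf2, was not low in iCD8a. It stood at 349, 291 and 47.2 CPM, 7.39-fold higher in iCD8a than in CD11b+ (6.98 to 7.84).

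S1pr5 and Klf2 were low together in iCD8a, and RefSeq promoter sequence on GRCm38.p6 was at hand for both. KLF factors bind CACCC boxes, so CACCC was searched on both strands (GGGTG on the printed strand) in the 220 bases that end 31 bases before the annotated start. The S1pr5 window, chr9:21248474-21248693 on the minus strand, holds 1 match on each strand, and the Klf2 window, chr8:72318812-72319031 on the plus strand, holds none. They are shown 5′ to 3′ in the direction of transcription, with matches in capitals.
S1pr5 promoter: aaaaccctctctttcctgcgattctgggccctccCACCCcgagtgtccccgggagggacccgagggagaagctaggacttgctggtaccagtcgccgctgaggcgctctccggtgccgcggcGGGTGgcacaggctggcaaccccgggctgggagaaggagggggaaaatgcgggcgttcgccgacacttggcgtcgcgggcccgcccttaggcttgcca
Klf2 promoter: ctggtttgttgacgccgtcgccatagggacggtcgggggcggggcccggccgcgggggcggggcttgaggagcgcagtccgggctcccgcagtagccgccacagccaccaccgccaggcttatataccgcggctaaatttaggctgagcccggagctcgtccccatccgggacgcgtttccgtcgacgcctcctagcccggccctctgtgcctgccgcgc
Of 32851 mouse promoter windows of this length, 47.8% hold at least 1 match and 17.7% at least 2, so 2 matches are common and describe the S1pr5 sequence without setting it apart. Of the other genes, Itgb7 and Jaml had 2 matches each and Epcam 1, and 5 of the 10 genes had a promoter in the table.

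**Figure D5:**
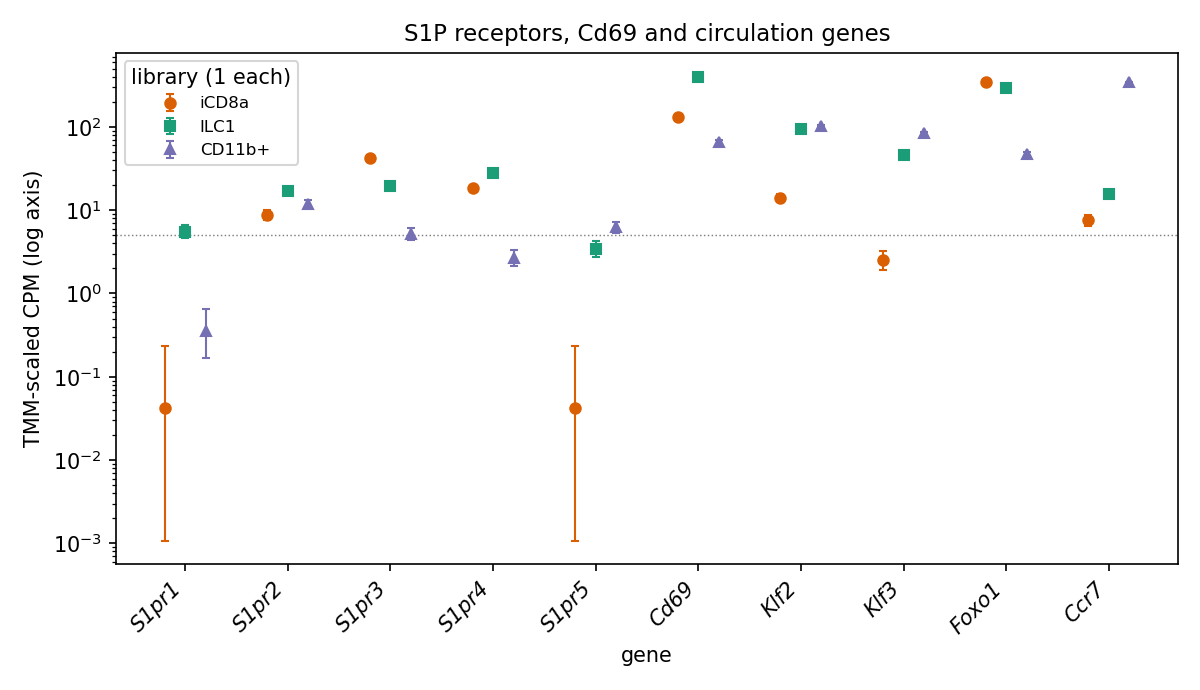
Level of the 5 S1P receptor genes, Cd69, Klf2 and 3 further genes of circulation in the 3 libraries, as TMM-scaled CPM on a log axis, with 95% exact Poisson intervals as bars and a dotted line at 5 CPM. The iCD8a points are lowest for S1pr1, S1pr2, S1pr5, Klf2, Klf3 and Ccr7, and highest for S1pr3 and Foxo1.

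Beyond the egress genes themselves, a list of 15 genes of circulating or recirculating leukocytes, which includes S1pr1, S1pr5 and Klf2, was mostly lower in iCD8a. Against ILC1, 8 were apart downward (4.89% of all genes) and 1 upward (3.52%), with a median log2 ratio of −2.77 against 0.06 over all genes. Against CD11b+, 7 were apart downward (13.4% of all genes) and 2 upward (6.13%), with a median of −1.77 against 0.05. Without the 3 genes it shares with the set, the list had 6 and 5 apart downward, and medians of −2.14 and −0.77. The genes below ILC1 and those below CD11b+ were partly different. Tcf7 and Il7r, a transcription factor and a cytokine receptor of naive, memory and innate lymphocytes, were at 502 and 259 CPM in ILC1 against 8.89 and 22.9 in iCD8a and 6.52 and 23.2 in CD11b+. Ccr7, which directs cells to lymph nodes, was at 343 CPM in CD11b+ against 7.57 in iCD8a and 15.7 in ILC1.

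The residency list of 24 genes, which includes Itgae, Cd69, Cdh1 and Jaml, did not move as a block. Against ILC1, 1 was apart upward in iCD8a (3.52% of all genes), Itgae itself, and 5 were apart downward (4.89%), Zfp683, Xcl1, Bhlhe40, Nr4a1 and Crtam, with a median log2 ratio of −0.30. Zfp683, which encodes Hobit, a repressor of egress genes in resident lymphocytes, was at 41.9 CPM in ILC1 against 0.127 in iCD8a and 0.0709 in CD11b+, and its ratio of ILC1 over iCD8a was 330.4 (113 to 1605) on 3 counts in iCD8a. Prdm1, which encodes Blimp-1, a repressor of the same genes, was at 85.1, 36.7 and 151 CPM. Against CD11b+, 3 were apart upward in iCD8a (6.13% of all genes), Itga1, Cxcr6 and Ccr9, and 3 downward (13.4%), Ahr, Nr4a1 and Cd101, so that the downward count was near the share over all genes. The list median for this pair was 0.79, and 0.23 without the 4 genes of the set. Between ILC1 and CD11b+, 7 were apart upward in ILC1 (6.01%) and 1, Prdm1, downward (13%), with a median of 0.69. Rgs1, a regulator of G protein signals that is abundant in gut lymphocytes, was high throughout at 6055, 4548 and 2435 CPM.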

How the data were processed

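RNA-seq libraries from iCD8a, ILC1 and CD11b+ cells of RAG-2 null mice were grouped by cell type label, 1 library per population, with 1 date in all 3 titles. Per the design text, the authors aligned with TopHat and counted with HTSeq. CASAVA 1.9 and TopHat2 are named in the submitters' processing notes. For the build, annotation and strand setting, nothing is given in the sources used here. The deposited files hold raw counts per Ensembl gene. Their 5 rows that name no gene were left out of library sizes. Of 37224 IDs, 35449 matched a GENCODE M21 symbol. Exon lengths and gene overlaps came from that annotation (GRCm38).

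TMM factors (edgeR 4.0.16, R 4.3.3) were 1.09, 0.992 and 0.925. Folds carry 95% exact conditional binomial (Clopper-Pearson) intervals and levels exact Poisson intervals (scipy 1.17.1). The reads carry no molecular identifiers that would mark independent molecules, so both cover counting error only. List medians are log2 ratios with a prior count of 0.5 over genes with at least 1 CPM in either library. With 1 library per group no p-value was computed. DESeq2 1.42.0 gave size factors only, as 1 of 16 alternatives. The members and the 16 lists (208 symbols) were chosen with earlier results of these data known. Named were the members, list genes, sort markers and, for each member, the 5 genes with at least 20 CPM nearest in centred log2 CPM over the 3 libraries, though some of these genes are not reported here. The folds, their intervals and the rule for genes apart were tested on simulated Poisson counts, and the other calculations were not.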

Additional observations from a re-analysis of the deposited data

Results flagged for a closer look

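Reads outside the gene counts were not used in any comparison. In the order iCD8a, ILC1, CD11b+, non-unique alignments made up 26.9%, 34.5% and 30.5% of the counts summed over all rows of each deposited file. A further 9.31%, 11% and 8.56% fell outside annotated genes, and 1.08%, 0.889% and 0.922% could not be assigned to a single gene. They are listed here because these shares are above 0 and the series has no control library to set them against. How many of them belong to Itgae, Haspin, Cxadr or Btg3, which overlap one another in pairs, was not tested.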

How the results depend on the processing

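No scaling or thinning of the libraries changed a count of the 10 genes apart, and their folds moved by at most 1.18-fold among 150 values on more than 10 counts. The counts followed the thresholds, by construction. With the fold lowered to 2 and the near bound to 1.5 together, 3 genes were higher in iCD8a than in CD11b+ (Itgae, Cxadr, Cd69) in place of 0, and 2 higher in CD11b+ than in ILC1 in place of 1. With a fold of at least 8, 1 gene was higher in iCD8a than in ILC1 (Itgae), 1 in ILC1 than in iCD8a (S1pr1), 1 in CD11b+ than in iCD8a (S1pr5), 1 in ILC1 than in CD11b+ (S1pr1) and 0 in CD11b+ than in ILC1. With a minimum of 20 CPM, 1 gene was higher in ILC1 than in iCD8a (Klf2), 1 in CD11b+ than in iCD8a (Klf2) and 1 in ILC1 than in CD11b+ (Cd69), since S1pr1 and S1pr5 fall below it, and with 1 CPM S1pr5 joined the genes higher in ILC1 than in iCD8a. With the fold at 2 and the near bound at 1.5, 959 of all genes were above ILC1 in iCD8a and 1092 below, in place of 356 and 494, and with a fold of at least 8, 202 and 305. Plain CPM moved the median log2 ratio of all genes to 0.20, 0.29 and 0.11 for the 3 pairs, from 0.06, 0.05 and 0.00, and the TGF-beta arm median of iCD8a over CD11b+ to 0.12, from −0.12. Length of the longest transcript in place of all exons moved 20 of 30 levels per kilobase beyond their counting interval. For S1pr1 and S1pr5, 1 read in iCD8a limits the precision of every ratio. No paired analysis was possible because each group has 1 library.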

Other observations

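TGF-beta induces Itgae and represses Klf2 in lymphocytes, and its signalling genes were read from a list of 12. In iCD8a 1 of the 12 was apart from ILC1 and 1 from CD11b+, both downward (4.89% and 13.4% of all genes), in both cases Smad3, a transcription factor that the activated receptor phosphorylates. In the order iCD8a, ILC1, CD11b+, Smad3 stood at 1.73, 213 and 42.5 CPM, 123-fold (90.2 to 171) and 24.5-fold (18.0 to 34.3) lower in iCD8a. Its relative Smad2 was nearly level at 43.4, 44.0 and 47.1 CPM. The receptor genes Tgfbr1 and Tgfbr2 were at 134, 68.1 and 189 CPM and at 292, 305 and 119.8 CPM. The iCD8a library, highest in Itgae, was the lowest in Smad3 and not the lowest in either receptor gene. Transcript levels do not measure signalling, and the part of TGF-beta in the Itgae and Klf2 levels was not tested. Itgb8, whose product pairs with αV to activate TGF-beta, stood at 3.43, 0.0454 and 0.390 CPM. The ligand gene Tgfb1 was at 292, 1134 and 838 CPM, and the inhibitor genes Smad7 and Skil were highest in ILC1, at 478 and 1255 CPM.

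Profiles over only 3 libraries are short, and many genes lie close by. Among 7989 protein-coding genes with at least 20 CPM in a library, the nearest to Itgae by distance in centred log2 CPM were Myh10 at 0.123, Ly6a at 0.186, Atp9a at 0.189, Dsp at 0.206 and Cdh17 at 0.226, and 11 genes lay within 0.5. Dsp encodes desmoplakin and Cdh17 a cadherin, both proteins of epithelial cell contacts. The 34 epithelial markers did not share this profile. Their median ratio of iCD8a over ILC1 was 0.967 against 9.50 for Itgae, and of iCD8a over CD11b+ 0.114 against 3.11. Nearest to S1pr1 were Tnfrsf25 at 0.0678, Thy1 at 0.0862 and Tnfsf14 at 0.231, with 4 genes within 0.5, and to Cd69 Susd2 at 0.108, with 64. Klf2 had 23 genes within 0.5, led by Bag3 at 0.0130, Epcam had 21, led by Pygl at 0.0614, and S1pr5 had 0, with Sh3bp5 nearest at 0.553. Since S1pr1 and S1pr5 had 1 count each in iCD8a, their distances and numbers of near genes are imprecise. Cdh1, Itgb7 and Jaml, which vary little, had 2045, 1427 and 746, and Cxadr had 319.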
